A study of Mus musculus with 12 samples.

Results

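Csf1 and Il34, the ligands that keep microglia alive, and Csf1r, the receptor that both of them bind, were described across 4 groups of mouse neural cells. The 3 genes were taken by name from a table of 55862 genes, and they were chosen by their FPKM in these same samples, which were already known to differ between the groups. Their own levels are therefore given as a description and without a test. RNA of 12 samples was sequenced, 3 in each group, and no engineered allele or drug is named for any group. The study's methods give the strain as C57BL/6 for the cultured cells and as C57BL/6J for both suspensions. ASTs were primary astrocytes from the cortex of newborn mice, grown as a monolayer in medium with serum and taken at day 0 of sphere culture. A-iSCs were such astrocytes after 5 days as floating spheres on agarose, the cells that the study calls astrocyte-derived stem cells. P56-NPCs were suspensions dissociated from the subependymal zone of adult mice at postnatal day 56. P0-NPCs were suspensions dissociated by another protocol from the hippocampus at postnatal day 0. Protocol, age and region therefore differ together between P56-NPCs and P0-NPCs. No sorting of any group before sequencing is described, so each sample could hold several cell types. The labels do not say whether the 3 samples of a group were separate cultures or animals, so errors and p-values measure only the spread between these samples.

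Csf1r is a receptor tyrosine kinase of the surface of microglia and other macrophages, and these cells depend on it for survival and proliferation. In the brain, Csf1 is made mainly by glia and Il34 mainly by neurons, and the proteins are unrelated in sequence although they bind the same receptor. Once bound, Csf1r becomes phosphorylated and recruits adaptors, Src family kinases and phosphoinositide 3-kinase, and its own gene is switched on in myeloid cells by Spi1 and the factors that work with it.

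Of the 3 genes, only Csf1 had an entry in the RefSeq promoter table. The 250 bases before its start are shown (GRCm38.p6, minus strand, chr3:107760470-107760719), with matches to an NF-kB site and to the GC box GGGCGG in capitals.
Csf1: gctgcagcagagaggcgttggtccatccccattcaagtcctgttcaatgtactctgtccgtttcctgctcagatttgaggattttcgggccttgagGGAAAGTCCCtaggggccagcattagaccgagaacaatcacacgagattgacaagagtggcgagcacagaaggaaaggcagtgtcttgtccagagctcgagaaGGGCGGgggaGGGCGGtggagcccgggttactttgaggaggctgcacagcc
The stretch is 56.4% G and C. The NF-kB match covers bases 154 to 145 before the start, and the 2 GC boxes cover bases 51 to 46 and 41 to 36. Searched on both strands in the same window, an NF-kB match occurs in 7.25% and a GC box in 32.7% of 32851 promoters. The AP-1 letters TGANTCA, which 6.75% of promoters hold, the TATA box letters TATAAA (12.4%) and the CCAAT letters (33.8%) are not in this window, nor is a match to the serum response factor motif (1.47%). These matches describe letters only, and no binding was measured.

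On the mouse build GRCm38, Csf1 (ENSMUSG00000014599) lies on the minus strand at chr3:107741048-107760469, Il34 (ENSMUSG00000031750) on the minus strand at chr8:110741829-110805924, and Csf1r (ENSMUSG00000024621) on the plus strand at chr18:61100598-61132149. All 3 are annotated as protein-coding. Csf1r overlaps Hmgxb3, which reached at most 3.79 FPKM, on the opposite strand. Il34 overlaps the lncRNA genes Gm15895 and Gm15894 on the opposite strand, which reached at most 0.540 and 0.0782 FPKM. Whether fragments were counted by strand is not given in the sources used here, so reads of overlapping genes cannot be told apart.

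The values are FPKM, fragments scaled to the length of each gene and to the size of the library, so levels of different genes can be set beside each other per length. The fragments counted per sample numbered 17077780 to 24452419, and 3 fragments of a gene of 1 kilobase corresponded to 0.103 to 0.187 FPKM. Mitochondrial genes took 16.5 to 17.6% of the fragments in P56-NPCs and 2.94 to 7.03% in the other groups. The labels were set against lists of marker genes. Astrocyte markers summed to 137 to 154 FPKM in ASTs, 1231 to 2483 in A-iSCs, 2786 to 3024 in P56-NPCs and 250 to 309 in P0-NPCs. The A-iSC sum was mostly Gfap and Aldoc, at means of 970 and 406 FPKM. Fibroblast markers summed to 147 to 198 FPKM in ASTs and to 4.67 to 5.73 in A-iSCs. In P56-NPCs, oligodendrocyte markers summed to 10825 to 12337 FPKM and neural stem cell markers to 165 to 191. In P0-NPCs, neuron markers summed to 852 to 1030 FPKM and neural stem cell markers to 714 to 826, while the latter summed to 691 to 845 in ASTs and 739 to 818 in A-iSCs.

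Csf1 encodes the colony-stimulating factor that drives the growth of macrophages. In ASTs its level was 276.9, 274.7 and 272.7 FPKM. In A-iSCs it was 23.3, 21.2 and 17.3 FPKM. The 3 AST samples lay within a few FPKM of each other and far above every A-iSC sample. P56-NPCs had 9.93, 9.89 and 9.82 FPKM, and P0-NPCs had 4.38, 4.32 and 3.68 FPKM. ASTs were thus highest, followed by A-iSCs and P56-NPCs, with P0-NPCs lowest, and the ranges of no pair of groups overlapped. In that order the means were 275 ± 2.11 (SD, n = 3), 20.6 ± 3.04, 9.88 ± 0.0551 and 4.13 ± 0.388 FPKM. Among 21926 protein-coding genes, Csf1 ranked 160 by mean FPKM in ASTs, 2175 in A-iSCs, 4525 in P56-NPCs and 7821 in P0-NPCs.

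On the log2(FPKM + 1) scale used for all differences, Csf1 in A-iSCs was lower than in ASTs by a difference of -3.68 ± 0.12 (SE), a 13.3-fold ratio of mean FPKM. The AST level was 27.8-fold that of P56-NPCs and 66.6-fold that of P0-NPCs. A-iSCs lay above both NPC groups, by 0.98 ± 0.12 over P56-NPCs (2.09-fold in FPKM) and by 2.07 ± 0.14 over P0-NPCs (5.00-fold in FPKM). When samples were scaled by library size alone, the difference between A-iSCs and P56-NPCs was 1.49, and that between P56-NPCs and P0-NPCs was 0.54 in place of 1.09. Counting error is small for this gene, since 24518 to 29415 fragments stood behind each AST value and 529 to 664 behind each P0-NPC value. The summed fibroblast markers given above were also highest in ASTs, and they were 109 to 122 FPKM in P0-NPCs, where Csf1 was lowest. The AST sum was mostly Col1a1, at a mean of 158 FPKM against 34.2 in P0-NPCs, while the means of Col1a2, Col3a1, Dcn and Lum were all higher in P0-NPCs than in ASTs. The part of these cells in the Csf1 levels was not tested.

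Il34 encodes the other ligand, a cytokine with a narrower range of sources. Its level was 4.02, 4.20 and 3.68 FPKM in ASTs and 1.42, 1.01 and 0.857 FPKM in A-iSCs. P56-NPCs had 2.38, 2.32 and 1.55 FPKM, and P0-NPCs had 3.88, 2.91 and 3.76 FPKM. ASTs and P0-NPCs shared the top of the order with overlapping ranges, P56-NPCs came next, and every A-iSC sample was below every sample of the other groups. The means were 3.97 ± 0.264 FPKM in ASTs, 3.52 ± 0.530 in P0-NPCs, 2.08 ± 0.464 in P56-NPCs and 1.09 ± 0.290 in A-iSCs (SD, n = 3).

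The Il34 difference of A-iSCs from ASTs was -1.25 ± 0.12 (SE) on the log2(FPKM + 1) scale, a 3.63-fold lower mean FPKM. The pseudocount holds this value down, and with 0.1 in its place the difference was -1.79. Against P56-NPCs the difference was -0.56 ± 0.17, and against P0-NPCs it was -1.11 ± 0.15. With a pseudocount of 0.1 these were -0.87 and -1.61. Scaled by library size alone, the difference from P56-NPCs was -0.22. ASTs and P0-NPCs differed by 0.14 ± 0.11. Il34 rests on far fewer fragments than Csf1, with 132 to 167 per AST sample, 45 to 56 per A-iSC sample, 50 to 81 per P56-NPC sample and 166 to 203 per P0-NPC sample. The summed neuron markers were lowest in A-iSCs, at 50.6 to 66.4 FPKM, as Il34 was. The excess of ASTs over A-iSCs was mostly Stmn2, at means of 53.8 and 7.16 FPKM, while the means of Rbfox3, Snap25, Map2 and Dcx were higher in A-iSCs. The sums were 88.1 to 124 FPKM in ASTs, 198 to 242 in P56-NPCs and 852 to 1030 in P0-NPCs, whereas Il34 was higher in ASTs than in P56-NPCs. The part of neurons in the Il34 levels was not tested.

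**Figure D1:**
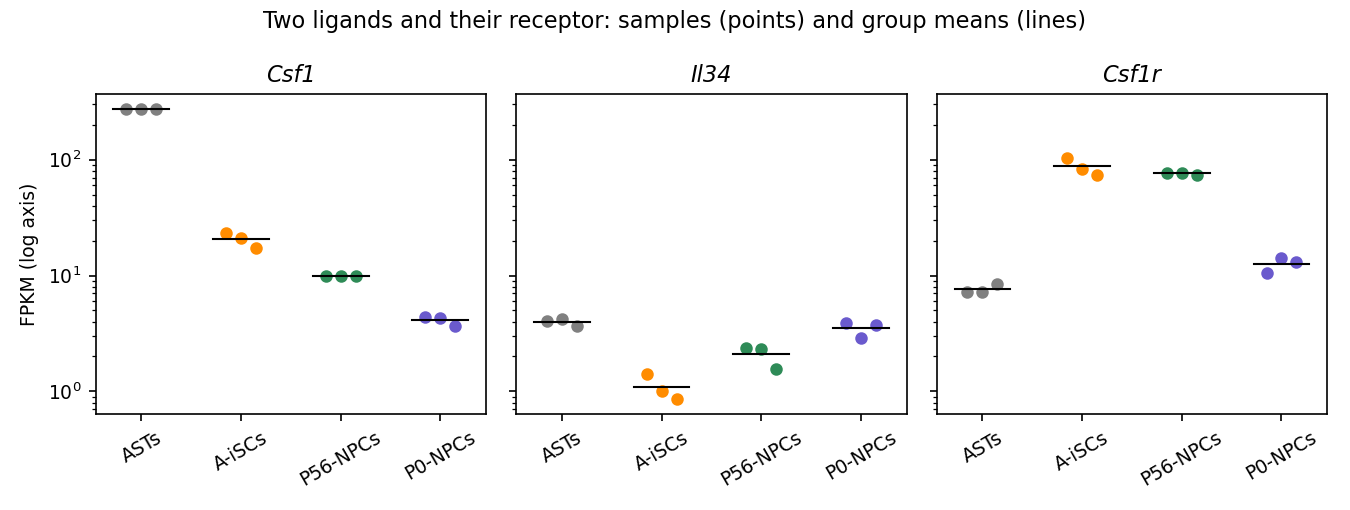
FPKM of Csf1, Il34 and Csf1r (log axis) in the 4 groups of 3 samples, each point a sample and each line a group mean. Csf1 spans from 277 FPKM in ASTs to 3.68 FPKM in P0-NPCs, Il34 is lowest in A-iSCs, and Csf1r is high in A-iSCs and P56-NPCs with overlapping points.

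The balance of the ligands differed between the groups. The FPKM ratio of Csf1 to Il34 was 68.9, 65.3 and 74.0 in the AST samples and 16.5, 21.05 and 20.2 in the A-iSC samples. It was 4.17, 4.26 and 6.34 in P56-NPCs and 1.13, 1.48 and 0.978 in P0-NPCs. No ranges overlapped, and only in P0-NPCs were the ligands at nearly equal levels. Csf1 made up 98.6% ± 0.0875 of the summed ligand FPKM in ASTs, 95.01% ± 0.645 in A-iSCs, 82.7% ± 3.21 in P56-NPCs and 54.1% ± 5.23 in P0-NPCs (SD, n = 3). The summed ligand FPKM was 279 ± 2.28 in ASTs, 21.7 ± 3.31 in A-iSCs, 11.96 ± 0.517 in P56-NPCs and 7.64 ± 0.545 in P0-NPCs.

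Csf1r, the receptor, showed another order. Its level was 7.15, 7.21 and 8.47 FPKM in ASTs and 104.3, 83.9 and 74.3 FPKM in A-iSCs. It was 77.1, 77.3 and 74.2 FPKM in P56-NPCs and 10.5, 14.1 and 12.98 FPKM in P0-NPCs. A-iSCs and P56-NPCs were high and overlapped, P0-NPCs were far lower, and ASTs were lowest with no sample reaching a P0-NPC value. The means were 87.5 ± 15.3 FPKM in A-iSCs, 76.2 ± 1.72 in P56-NPCs, 12.5 ± 1.81 in P0-NPCs and 7.61 ± 0.745 in ASTs (SD, n = 3). Csf1r ranked 433 among the protein-coding genes in A-iSCs, 594 in P56-NPCs, 3448 in P0-NPCs and 5561 in ASTs.

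In A-iSCs, Csf1r was 11.5-fold higher in FPKM than in ASTs, a difference of 3.35 ± 0.16 (SE) on the log2(FPKM + 1) scale, opposite in direction to both ligands. Against P0-NPCs the difference of A-iSCs was 2.71 ± 0.18 and that of P56-NPCs was 2.52 ± 0.12. A-iSCs and P56-NPCs differed by 0.18 ± 0.14, and by 0.73 when samples were scaled by library size alone. The difference was 0.051 without A-iSC replicate 1 and 0.293 without A-iSC replicate 3, the only A-iSC sample within the span of the P56-NPC values. The receptor stood at 0.0277 ± 0.00291 of the Csf1 level in ASTs, compared in FPKM, and at 4.24 ± 0.264 times it in A-iSCs, 7.71 ± 0.136 times in P56-NPCs and 3.06 ± 0.587 times in P0-NPCs (SD, n = 3). In these bulk samples, fewer cells of a type and less RNA per cell cannot be told apart.

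The ranges of all 3 genes did not overlap between A-iSCs and ASTs, as was the case for 62.7% of the 14087 genes tested there. For A-iSCs and P56-NPCs this held for 2 of the 3 genes, with 68.5% of all tested genes. For A-iSCs and P0-NPCs it held for 3 of 3 (70.7% of tested genes), and for P56-NPCs and P0-NPCs for 3 of 3 (81.2%). Between ASTs and the NPC groups it held for 3 of 3 genes with P56-NPCs (81.9%) and for 2 of 3 with P0-NPCs (81.4%). Since the genes were chosen for these patterns, nothing is read from the counts.

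Csf1r was set beside 20 marker genes of microglia. Their summed level was 381 to 441 FPKM in ASTs, 4022 to 5164 in A-iSCs, 1219 to 1312 in P56-NPCs and 205 to 248 in P0-NPCs, and none of the 20 was at 0 throughout a group. The defining surface receptor Cx3cr1 was at 61.1 ± 6.70 FPKM in A-iSCs and 7.17 ± 0.680 in ASTs (SD, n = 3), a difference of 2.92 ± 0.13 with a limma adjusted p = 5.9e-06. Aif1, the calcium-binding protein used to stain microglia, was at 41.6 ± 6.04 and 3.22 ± 1.002 FPKM (3.35 ± 0.19, limma adjusted p = 1.32e-05). Of the 19 microglia markers tested, the A-iSC level was above that of ASTs for 18 and below it for 0 by limma at an adjusted p under 0.05, with a median difference of 2.84. In that comparison 54.8% of all genes tested passed, 25.2% higher and 29.6% lower, with a median of -0.06. Trem2, a lipid-sensing receptor of microglia, was among the 18 at 2.22 against 0.712 FPKM, but its call was lost with no filter on low genes and without AST replicate 1 or 3 or A-iSC replicate 1 or 2. The 7 markers of border macrophages, which also carry Csf1r, summed to 7.34 to 11.5 FPKM in ASTs, 50.0 to 71.9 in A-iSCs, 2.44 to 7.28 in P56-NPCs and 40.5 to 48.3 in P0-NPCs. The A-iSC sum was mostly Pf4 and Ms4a7, at means of 28.4 and 27.5 FPKM, and the means of Mrc1, Lyve1, Cd163, F13a1 and Cbr2 were each under 1 FPKM there. Of these 7 markers, 1 was higher and 4 lower in A-iSCs against P0-NPCs by limma (median -1.38), a comparison where 65.1% of all genes tested passed, 31.5% higher and 33.6% lower, with a median of -0.02. Against ASTs, 2 of 3 tested were higher and 1 lower in A-iSCs (median 2.60), beside 25.2% and 29.6% of all genes. Against P56-NPCs, 2 of 3 border macrophage markers were higher and 0 lower (median 3.78), beside 30.1% and 30.9%. The part of these cells in the Csf1r level was not tested.

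Some microglia markers were lower in A-iSCs than in P56-NPCs. P2ry12, the purinergic receptor of resting microglia, was at 60.2 ± 0.161 FPKM in P56-NPCs and 7.30 ± 1.88 in A-iSCs, a difference of A-iSCs of -2.91 ± 0.17 (limma adjusted p = 8.61e-06). Tmem119, another microglial surface protein, was at 52.2 ± 2.40 against 16.8 ± 1.56 FPKM (-1.58 ± 0.10, limma adjusted p = 1.6e-05). Siglech, which was named after its values were seen, was at 18.5 FPKM in P56-NPCs and 0.0391 in A-iSCs, the latter below the level of 3 fragments for a gene of 1 kilobase. Of the 20 markers, 14 were higher and 4 lower in A-iSCs than in P56-NPCs, where 61.0% of all genes tested passed (30.1% higher, 30.9% lower) and the median of the list was 1.37 against 0.03 over all genes. Cx3cr1 was among the higher ones, by 0.57 ± 0.12 (limma adjusted p = 0.00509).

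The level of Csf1r per unit of marker RNA depended on which markers were summed. Divided by all 20, it was 0.0184 ± 0.00191 in ASTs, 0.0194 ± 0.000865 in A-iSCs, 0.0599 ± 0.00340 in P56-NPCs and 0.0536 ± 0.00269 in P0-NPCs (SD, n = 3), so the cultured groups overlapped each other and lay below the suspensions. Divided by Aif1, Cx3cr1, P2ry12 and Tmem119 alone, the means were 0.526, 0.687, 0.475 and 0.861 in the same order. The separation of cultures from suspensions was absent with these 4 markers, where P56-NPCs came lowest. Of the 20 markers, C1qa, C1qb, C1qc and Ctss had the highest means in A-iSCs, at 1029, 965, 492 and 978 FPKM. Their means in P56-NPCs were 213, 190, 94.1 and 234 FPKM.

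**Figure D2:**
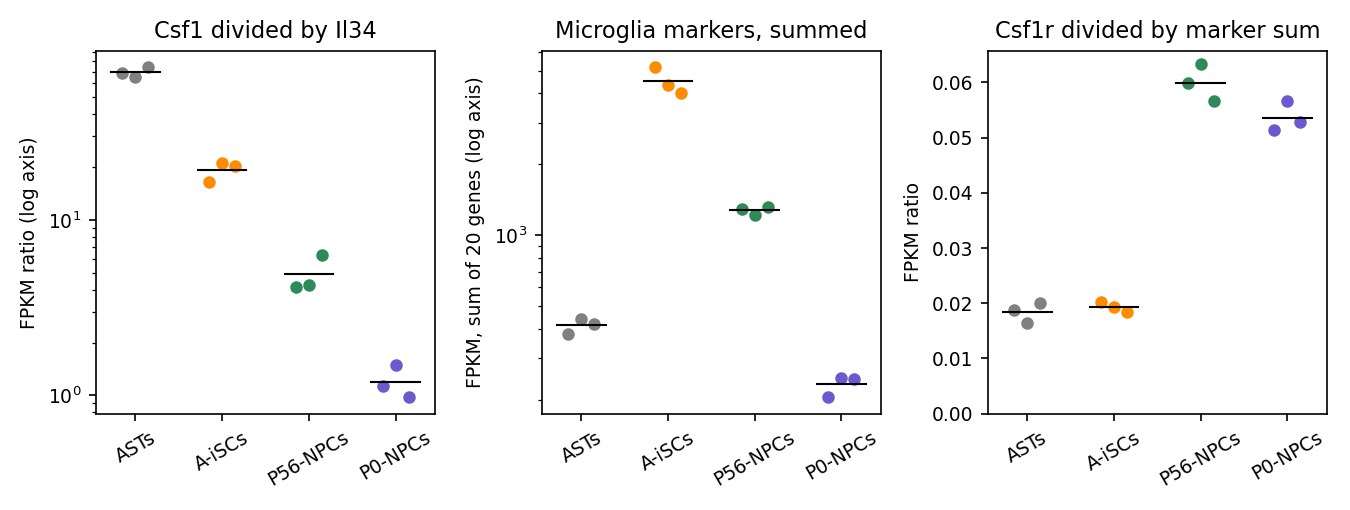
FPKM ratio of Csf1 to Il34 (log axis), summed FPKM of 20 microglia markers (log axis), and FPKM of Csf1r divided by that sum, for each sample (points) with group means (lines). The ligand ratio falls from 69.4 in ASTs to 1.20 in P0-NPCs by group mean, and Csf1r per marker sum is near 0.019 in both cultured groups and above 0.05 in both suspensions.

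Other binding partners and the protease of the ligands were next compared. Ptprz1, a receptor phosphatase that also binds Il34, was at 6.62 ± 0.859 FPKM in ASTs, 23.2 ± 11.8 in A-iSCs, 71.0 ± 4.05 in P56-NPCs and 43.7 ± 6.77 in P0-NPCs (SD, n = 3). It was higher in A-iSCs than in ASTs by 1.57 ± 0.31 (limma adjusted p = 0.00422) and lower than in P56-NPCs by a difference of -1.68 ± 0.30 (limma adjusted p = 0.00255). Sdc1, a heparan sulphate proteoglycan that binds Il34, was at 27.0 ± 2.20 FPKM in ASTs and 7.03 ± 0.531 in A-iSCs (-1.80 ± 0.11, limma adjusted p = 2e-05), and at 0.851 ± 0.338 in P56-NPCs. Adam17, a protease that sheds membrane-bound Csf1 and cleaves Csf1r, was at 11.2 ± 1.54 FPKM in ASTs and 13.1 ± 3.34 in A-iSCs (limma adjusted p = 0.416). It was higher in A-iSCs than in P56-NPCs, by 0.73 ± 0.17 (limma adjusted p = 0.00873). The 2 binding partners of Il34 thus differed in opposite directions between A-iSCs and ASTs.

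Of 9 transcription factors that act on the Csf1r gene in myeloid cells, 6 were higher and 0 lower than in ASTs when A-iSCs were examined, beside 25.2% and 29.6% of all genes tested. The median was 1.47, and under upper-quartile scaling 6 were higher and 1 lower, beside 21.4% and 35.1% of all genes. Spi1, the master factor of macrophages, was at 40.3 ± 15.9 FPKM in A-iSCs and 4.30 ± 0.956 in ASTs (2.90 ± 0.30, limma adjusted p = 0.000195). Irf8, its partner in microglia, was at 17.9 ± 1.41 and 1.29 ± 0.0362 FPKM (3.04 ± 0.10, limma adjusted p = 3.54e-06), and Cebpa, a myeloid lineage factor, at 43.3 ± 7.88 and 8.55 ± 0.455 FPKM (2.20 ± 0.15, limma adjusted p = 2.44e-05). Cebpb, its relative in inflammatory responses, differed by 1.06 ± 0.29 (limma adjusted p = 0.0177), a call that was lost without AST replicate 1 or 3 or A-iSC replicate 1 or 2. Runx1, a factor of early myeloid cells, was at 3.04 ± 0.421 FPKM in A-iSCs and 3.43 ± 0.207 in ASTs (limma adjusted p = 0.365).

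The same factors were then compared between A-iSCs and P56-NPCs. Spi1 was at 5.85 ± 0.167 FPKM in P56-NPCs, and the A-iSC level exceeded it by 2.51 ± 0.28 (limma adjusted p = 0.000221). Irf8 was at 3.10 ± 0.322 FPKM in P56-NPCs, lower than A-iSCs by 2.21 ± 0.11 (limma adjusted p = 4.16e-06). Of the 9 factors, 8 were higher and 0 lower in A-iSCs than in P56-NPCs (median 1.30), beside 30.1% and 30.9% of all genes. Against P0-NPCs 8 were higher and 0 lower (median 1.93), beside 31.5% and 33.6%. Between P56-NPCs and P0-NPCs, 6 of 8 tested were higher and 1 lower (median 0.77), in a comparison where 78.8% of genes passed, 39.7% higher and 39.0% lower, with a median of 0.01. Scaled by library size alone, these last counts were 3 and 1 (median 0.21), beside 22.3% higher and 61.2% lower over all genes. The comparisons of A-iSCs with ASTs, P56-NPCs and P0-NPCs share the A-iSC samples.

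Below the receptor, 35 of 37 listed signalling genes were tested between A-iSCs and ASTs, and 18 were higher and 5 lower (median 0.49), beside 25.2% and 29.6% of all genes. With scaling by library size alone, 22 were higher and 1 lower, beside 31.9% and 20.9% of all genes, and the median of all genes moved from -0.06 to 0.13. The highest of the named ones by level was Tyrobp, the adaptor that relays Csf1r and Trem2 signals, at 480 ± 99.6 FPKM in A-iSCs and 48.2 ± 11.9 in ASTs (3.30 ± 0.22, limma adjusted p = 2.72e-05). Inpp5d and Ptpn6, phosphatases that restrain the receptor, were higher too. Ptpn11, another phosphatase of the list, was named after its values were seen. It was at 18.0 ± 8.83 FPKM in A-iSCs and 30.4 ± 5.45 in ASTs (-0.80 ± 0.30, limma adjusted p = 0.0573). Inpp5d, an inositol phosphatase, was at 11.5 ± 0.918 against 1.12 ± 0.178 FPKM (2.56 ± 0.12, limma adjusted p = 6.55e-06), and Ptpn6, a tyrosine phosphatase, at 25.9 ± 7.46 against 3.25 ± 0.529 FPKM (2.63 ± 0.22, limma adjusted p = 6.99e-05). Plcg2, the phospholipase of myeloid cells, differed by 1.49 ± 0.12 (limma adjusted p = 6.74e-05), and Pik3cd, the leukocyte form of the kinase's catalytic subunit, by 1.98 ± 0.12 (limma adjusted p = 1.55e-05).

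Other named genes of the list differed in either direction. Grb2, the adaptor to the Ras pathway, was at 49.3 ± 3.00 FPKM in A-iSCs and 35.1 ± 0.341 in ASTs (0.48 ± 0.11, limma adjusted p = 0.00778). Akt1, a survival kinase, was lower in A-iSCs, at 58.0 ± 3.42 against 81.1 ± 7.75 FPKM (-0.47 ± 0.13, limma adjusted p = 0.0163), and this call was lost without AST replicate 1 or 3, without A-iSC replicate 1, and with library size scaling. Stat3, a cytokine-driven factor, was higher by 0.84 ± 0.23 (limma adjusted p = 0.0185), which was lost without AST replicate 2. Dok1, an adaptor that dampens tyrosine kinases, was lower in A-iSCs, at 11.9 against 66.1 FPKM (-2.38 ± 0.18, limma adjusted p = 4.58e-05).

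In A-iSCs against P56-NPCs, 20 of 35 signalling genes were higher and 6 lower (median 0.47), beside 30.1% and 30.9% of all genes, and 27 of 36 were higher and 3 lower with scaling by library size alone, which called 55.9% of all genes higher and 19.2% lower and moved their median to 0.49. Tyrobp was at 50.9 ± 1.30 FPKM in P56-NPCs, 3.19 ± 0.16 below A-iSCs on the log2(FPKM + 1) scale (limma adjusted p = 4.97e-06). Against P0-NPCs, 21 were higher and 6 lower (median 1.19), beside 31.5% and 33.6%. Between P56-NPCs and P0-NPCs, 21 of 33 were higher and 4 lower (median 0.45), beside 39.7% and 39.0%, but 15 were higher and 14 lower with scaling by library size alone, which called 22.3% of all genes higher and 61.2% lower and moved their median to -0.53. The P56-NPC samples are also those with the high mitochondrial share, and its part in these differences was not tested.

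**Figure D3:**
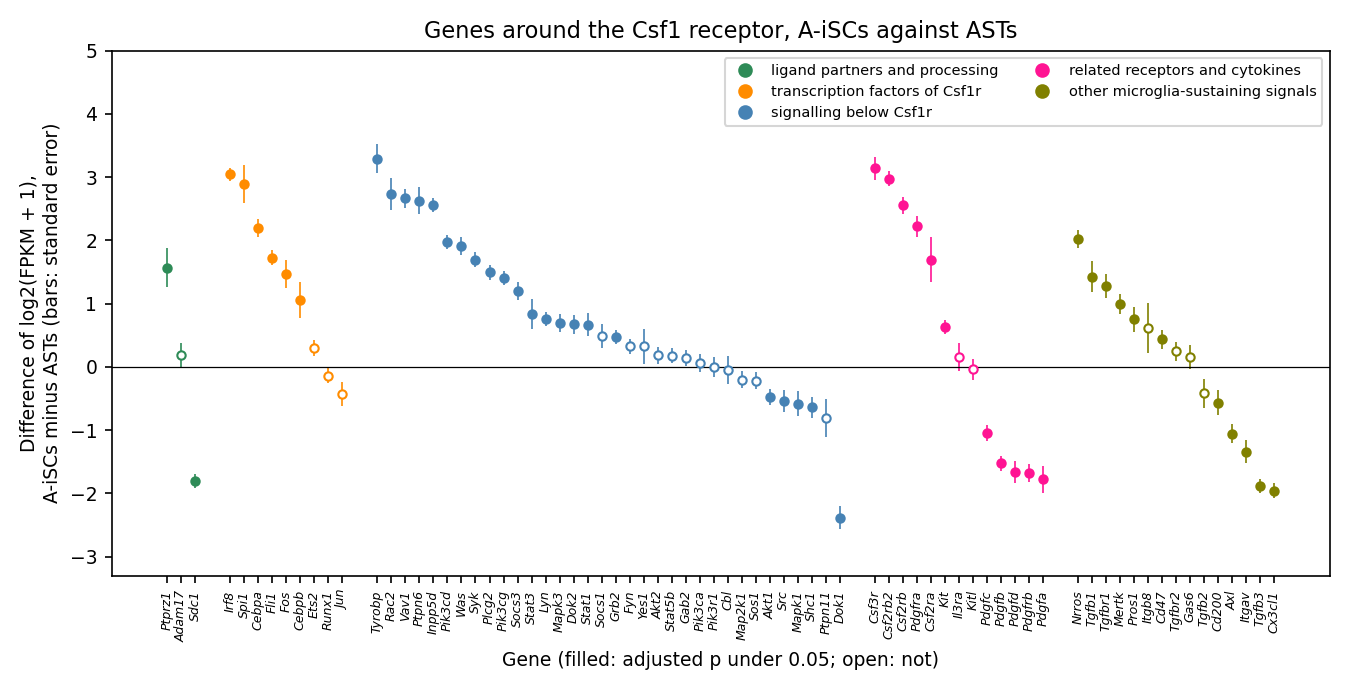
Difference of log2(FPKM + 1) of A-iSCs minus ASTs for tested genes of 5 lists around Csf1r, with standard errors as bars, filled points for a limma adjusted p under 0.05 and open points for the others. The lists hold 75 tested genes, of which 37 are called higher and 16 called lower (25.2% and 29.6% of all genes tested) and 1 is not drawn, with Tyrobp, Csf3r and Irf8 above 3 and Dok1 at -2.38.

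Related receptors and their ligands formed the next list of 18 genes, of which Il3 and Csf2, cytokines of T cells, were at 0 in every A-iSC and P56-NPC sample. Between A-iSCs and ASTs, 6 of the 13 tested were higher and 5 lower (median 0.16), beside 25.2% and 29.6% of all genes. With scaling by library size alone 7 of 14 were higher and 5 lower (median 0.53), beside 31.9% and 20.9%. Under upper-quartile scaling 6 of 13 were higher and 5 lower (median 0.05), beside 21.4% and 35.1%. The receptors of the other colony-stimulating factors were among the higher. Csf3r, the receptor of granulocyte colony-stimulating factor, was at 12.9 ± 3.18 FPKM in A-iSCs and 0.544 ± 0.125 in ASTs (3.14 ± 0.18, limma adjusted p = 1.46e-05). Csf2ra, a subunit of the granulocyte-macrophage factor's receptor, was at 19.8 ± 8.58 and 5.05 ± 1.41 FPKM (1.70 ± 0.35, limma adjusted p = 0.00514).

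The platelet-derived growth factor receptors, the nearest relatives of Csf1r together with Kit and Flt3, differed in opposite directions. Pdgfra, which marks oligodendrocyte precursors, was at 5.50 ± 1.43 FPKM in A-iSCs and 0.373 ± 0.0736 in ASTs (2.22 ± 0.17, limma adjusted p = 4.12e-05). Pdgfrb, which marks pericytes and fibroblasts, was at 2.79 ± 0.464 and 11.1 ± 1.58 FPKM (-1.68 ± 0.15, limma adjusted p = 8.32e-05). Kit, the stem cell factor receptor, was at 1.36 ± 0.0487 FPKM in A-iSCs, 0.533 ± 0.105 in ASTs and 4.24 ± 0.589 in P0-NPCs, and A-iSCs exceeded ASTs by 0.63 ± 0.11 (limma adjusted p = 0.00251). Its ligand Kitl was at 10.2 ± 2.25 FPKM in A-iSCs and 10.4 ± 1.20 in ASTs (limma adjusted p = 0.869), and at 1.92 ± 0.0614 in P56-NPCs. Flt3, the receptor of dendritic cell progenitors, and its ligand Flt3l stayed under 1 FPKM on average in every group and were not tested.

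Against P56-NPCs, 8 of 13 related genes had the higher level in A-iSCs and 2 the lower (median 0.84), beside 30.1% and 30.9% of all genes, and with scaling by library size alone 11 of 14 were higher and 1 lower, beside 55.9% and 19.2%. Against P0-NPCs 9 were higher and 3 lower (median 0.89), beside 31.5% and 33.6%. Between P56-NPCs and P0-NPCs 5 of 11 were higher and 6 lower (median -0.37), beside 39.7% and 39.0%, and 3 were higher and 6 lower with scaling by library size alone, beside 22.3% and 61.2%.

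The last list held 15 genes of other signals that sustain or restrain microglia. Between A-iSCs and ASTs, 6 were higher and 5 lower (median 0.25), beside 25.2% and 29.6% of all genes. Tgfb1, the growth factor that maintains the identity of microglia, was at 14.7 ± 5.12 FPKM in A-iSCs and 4.61 ± 0.392 in ASTs (1.43 ± 0.24, limma adjusted p = 0.00197). Mertk, a receptor for the uptake of dying cells, was at 13.6 ± 0.973 and 6.38 ± 1.36 FPKM (0.998 ± 0.16, limma adjusted p = 0.00154), and at 29.0 ± 0.958 in P56-NPCs. Cx3cl1, the ligand of Cx3cr1, was at 7.91 ± 0.420 FPKM in A-iSCs and 33.7 ± 3.27 in ASTs (-1.96 ± 0.12, limma adjusted p = 1.6e-05). Against P56-NPCs 6 of 15 were higher and 3 lower (median 0.21), beside 30.1% and 30.9% of all genes, or 10 and 1 with scaling by library size alone, beside 55.9% and 19.2%. Against P0-NPCs 13 were higher and 2 lower in A-iSCs (median 1.35), beside 31.5% and 33.6%. The counts in P56-NPCs against P0-NPCs were also 13 and 2 (median 1.20), beside 39.7% and 39.0%, or 9 and 2 (median 0.67) with scaling by library size alone, beside 22.3% and 61.2%.

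Finally, the genes with the pattern most like each of the 3 were sought among 13659 protein-coding genes. Likeness was measured as a root mean square distance on the log2(FPKM + 1) scale, with each gene centred on its own mean over the 12 samples. Nearest to Csf1 was Hbegf, a heparin-binding ligand of the epidermal growth factor receptor, at a distance of 0.21, where the median gene was at 2.20. Its mean FPKM was 254 in ASTs, 16.1 in A-iSCs, 6.18 in P56-NPCs and 2.65 in P0-NPCs. Pmaip1, a pro-apoptotic gene, Gprc5a, Dok1 and Ccn5 came next at 0.48 to 0.52. All of these were highest in ASTs. Nearest to Il34 were Orai2, a calcium channel subunit, at 0.16, then Ptgis, Nectin1, Vegfc and Fibin up to 0.20, where the median gene was at 0.71. Orai2 had a mean of 15.7 FPKM in ASTs, 5.56 in A-iSCs, 7.85 in P56-NPCs and 13.8 in P0-NPCs. Ptgis had means of 1.19 FPKM in ASTs and 0.0889 in A-iSCs, and Fibin of 2.77 and 0.264. At such low levels the pseudocount of 1 holds the log2 differences, and so the distances, down.

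Nearest to Csf1r was Il10ra, a subunit of the interleukin 10 receptor, at a distance of 0.24, where the median gene was at 1.59. Its mean was 12.9 FPKM in A-iSCs, 9.14 in P56-NPCs, 0.758 in P0-NPCs and 0.631 in ASTs, at levels well under those of Csf1r. Kcna6, a potassium channel, followed at 0.27, then Csf3r at 0.33, Padi2 at 0.38 and Slco2b1 at 0.40. Padi2 and Slco2b1 were higher in P56-NPCs than in A-iSCs by mean FPKM, and Il10ra, Kcna6 and Csf3r were higher in A-iSCs, as Csf1r was. These distances describe 12 samples of 4 groups and carry no test.

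**Figure D4:**
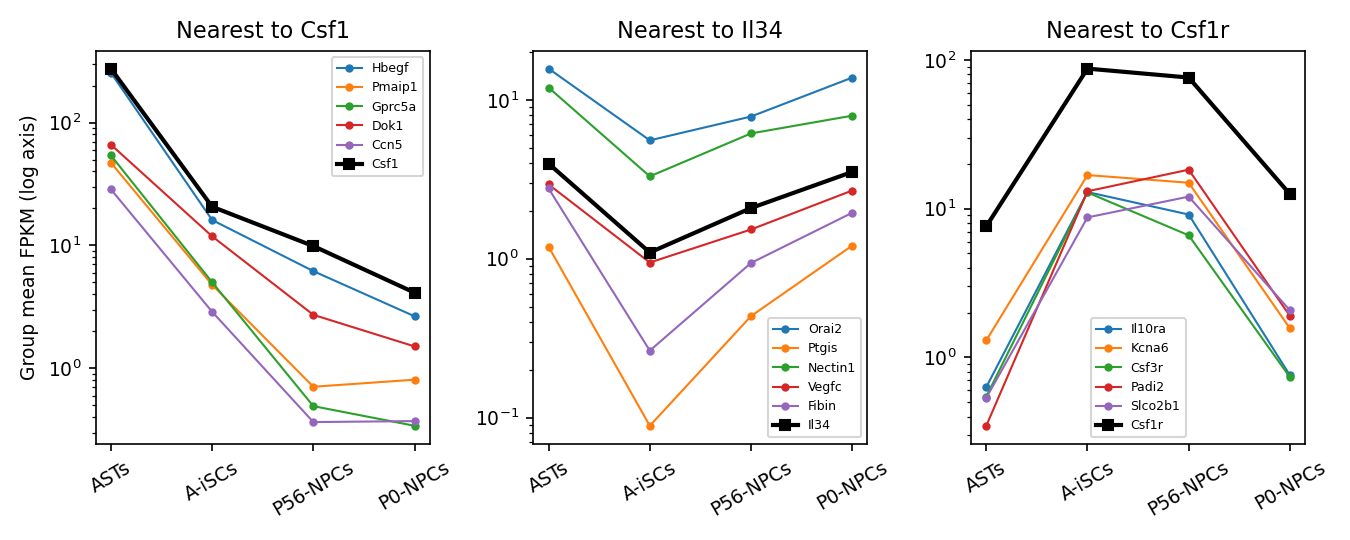
Group mean FPKM (log axis) of Csf1, Il34 and Csf1r (black squares) and of the 5 genes nearest to each (coloured circles), with lines that join the means of 1 gene across the 4 groups. Hbegf runs along Csf1 from 254 to 2.65 FPKM, the genes near Il34 are lowest in A-iSCs, and those near Csf1r are high in A-iSCs and P56-NPCs.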

How the data were processed

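RNA-seq of 12 samples was analysed from a single table deposited by the authors, with values in FPKM, gene positions and gene lengths. Neither header nor labels name the unit. It was taken from the values, of which the low ones, multiplied by gene length, were whole multiples of 1 step per sample (100% within a tolerance of 0.02). The submitters' processing notes name Bowtie 0.12.2 and mm8, but 54899 of 55154 shared gene identifiers had the positions of GENCODE M21 (GRCm38). The values had been scaled to a library size between 0.744 and 1.22 of the recovered fragment total.

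The members and lists were chosen with earlier results of these data known. Named genes were the 3 members, 33 role genes, of which 1 is not reported here, and the 5 genes nearest to each member. limma 3.58.1 in R 4.3.3 (lmFit, eBayes with trend) was run on log2(FPKM + 1) over genes with a mean of at least 1 FPKM in 1 of the 2 groups, with Benjamini-Hochberg adjustment and calls under 0.05. DESeq2, which the study's methods name, was not run. Alternatives were library size alone, upper-quartile scaling, a pseudocount of 0.1, no filter, all 4 groups, a replicate block, limma-voom on recovered fragments, leaving out each sample, and 4 markers. Same-numbered samples did not deviate together in every pair, so numbers were not used as pairs. Python 3.11.15, numpy 2.4.6, pandas 2.3.3 and matplotlib 3.10.9 were used. Intervals from depth cover counting error only. The RefSeq promoter table held no entry for Il34 or Csf1r, and the proteins were not used here.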

Additional observations from a re-analysis of the deposited data

How the results depend on the processing

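Scaling by library size alone moved the most values, and it moved the median of all genes to 0.49 for A-iSCs against P56-NPCs and to -0.53 for P56-NPCs against P0-NPCs. Under it the differences on the log2(FPKM + 1) scale were, for A-iSCs minus ASTs, -3.47 for Csf1 and 3.56 for Csf1r, for A-iSCs minus P56-NPCs, 1.49 for Csf1, -0.22 for Il34 and 0.73 for Csf1r, and for P56-NPCs minus P0-NPCs, 0.54 for Csf1, -0.997 for Il34 and 1.91 for Csf1r. Under the same scaling 4563 genes were higher and 2989 lower in A-iSCs than in ASTs, 8329 higher and 2857 lower in A-iSCs than in P56-NPCs, and 3438 higher and 9428 lower in P56-NPCs than in P0-NPCs. Of the listed pathway genes, 44 of 77 tested were then higher and 11 lower in A-iSCs than in ASTs, beside 31.9% and 20.9% of all genes. Against P56-NPCs, 58 of 77 were higher and 6 lower in A-iSCs, beside 55.9% and 19.2%. In P56-NPCs against P0-NPCs, 30 of 70 were higher and 25 lower, beside 22.3% and 61.2%. This scaling also turned the signs of Runx1 (0.029) and Kitl (0.16) in A-iSCs against ASTs and of Adam17 (-0.23) and Stat3 (-0.46) in P56-NPCs against P0-NPCs. Kitl, at -0.04 otherwise, ranged from -0.19 to 0.066 with a sample left out, being 0.020 without AST replicate 1, 0.066 without A-iSC replicate 1 and 0.021 without A-iSC replicate 2. With a pseudocount of 0.1, the Il34 difference was -1.79 for A-iSCs minus ASTs, -0.87 for A-iSCs minus P56-NPCs and -1.61 for A-iSCs minus P0-NPCs, and that of Csf1 was 2.29 for A-iSCs minus P0-NPCs and 1.24 for P56-NPCs minus P0-NPCs. With 4 markers, Csf1r per marker was 0.526 in ASTs, 0.687 in A-iSCs, 0.475 in P56-NPCs and 0.861 in P0-NPCs. Of 75 pathway genes tested between A-iSCs and P0-NPCs, 52 were higher and 12 lower, beside 31.5% and 33.6% of all genes, and the number lower ranged from 7 to 15 with a sample left out, at 7 without A-iSC replicate 1 or 2 or P0-NPC replicate 2 or 3. The replicate number as a block gave 38 higher and 17 lower pathway genes for A-iSCs against ASTs, beside 3694 higher and 4250 lower of all 14087 genes tested. Without the block 37 and 16 were called, beside 25.2% and 29.6% of all genes. Same-numbered samples of A-iSCs and ASTs correlated at -0.40, 0.34 and 0.44, and the numbers were not used as pairs. With 3 samples per group, centred on their own mean, these values cannot show whether the samples were paired. The causes of these changes were not tested. Among Csf1, Il34 and Csf1r, Il34 in A-iSCs rests on the fewest fragments, 45 to 56 per sample.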
